A study of Rattus norvegicus with 6 samples.

Results

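The heme synthesis genes described here are Alas1, Alas2, Alad, Uros, Urod, Cpox, Ppox, Fech and Slc25a38, chosen by name as genes of a single pathway. They were found by the gene symbol in the authors' deposited table, which gave 9 genes of 19958 with a gene ID, 9 probes of 30367 and 18 spots of 58717 per array. Each gene is read by 1 probe, and each probe is spotted 2 times on an array. The list does not hold every enzyme of the pathway.

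The study withheld iron from a rat hepatoma line and from rats, and measured RNA on 6 Agilent arrays of a single slide. FAO cells, a rat liver cell line, received 100 µM of the iron chelator deferoxamine (DFO) for 24 h or none (0 µM), and RNA of 3 cultures was pooled for each array. Wistar rats, called mice in part of the labels, ate for 4 weeks either an iron-free AIN-93G diet or the same diet with iron (the controls), and RNA of 6 animals was pooled for each liver and each kidney array. Every group is thus 1 array, in the order DFO-treated and untreated FAO, iron-free and control liver, iron-free and control kidney. The labels used here give neither age nor sex of the rats, and FAO is a single cell line. No spread between cultures or animals can be had from pools, so no test was made. A gene is called higher or lower when it differs at least 2-fold (log2 of 1). Levels are scaled signals, which are spot signals in arbitrary units brought to a common 75th percentile. Differences are log2 of the first over the second array, with ± a standard error computed from how far repeated spots of a probe lay apart, which covers spot noise only. A scaled signal depends on the probe, and levels are compared only between arrays for the same gene.

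Heme is built in the mitochondrion and the cytosol. Slc25a38 brings glycine into the mitochondrion, an Alas enzyme joins it to succinyl-CoA in the rate-limiting step, cytosolic enzymes assemble the porphyrin ring, and Cpox, Ppox and Fech finish it inside the mitochondrion, where Fech inserts iron. Alas1 is made in nearly all cells and is shut down by heme, and liver uses most of its heme for cytochromes P450. Alas2 is the erythroid form, whose messenger RNA carries an iron-responsive element that holds back translation when iron is low, and an RNA level does not show that step.

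Of the 54 values of 9 genes on 6 arrays, 49 were well above background, meaning that the scanner software marked all of the probe's spots so. The exceptions were Alas2 on both FAO arrays, Uros on both kidney arrays and Cpox on the control kidney array. Per array, between 37.7% and 48.8% of all probes were well above background, and 0 spots were saturated. The tissue labels fitted their markers: albumin (Alb) was at 142826 and 86391 in iron-free and control liver and not well above background in kidney, and the tubule gene Umod (uromodulin) was at 164908 and 200247 in iron-free and control kidney and not well above background in liver. FAO cells, with 43497 with DFO and 41323 without, also carried Alb, and 13 of 14 hepatocyte markers were well above background on each FAO array. The number of blocks of 16 by 16 spots in which repeated spots disagreed (noisy blocks) was 8 of 264 in iron-free liver and 57 in control liver, and lay between 20 and 38 on the other 4 arrays.

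Upstream sequence is shown for Alas1, the member called in more than 1 of the 3 comparisons, and for Alad, the next enzyme, which was not called in any. Motifs and examples were picked after the sequences had been read. RefSeq promoter windows of build GRCr8 exist here for 8 of the 9 members, and Cpox is the remaining one. For 3 of them (Alas2, Uros and Ppox) the window starts inside the annotated gene. The 250 bases before the transcript start of Alas1 lie at chr8:115768643-115768892 on the minus strand and those of Alad at chr5:80987902-80988151 on the minus strand, both printed 5′ to 3′. Capitals mark the motif of nuclear respiratory factor 1 (GCGCA, any base, then GCGC), matched on the opposite strand in Alas1, and ACGTG, the core of the hypoxia response element, in Alad (its matches on both strands overlap).
Alas1: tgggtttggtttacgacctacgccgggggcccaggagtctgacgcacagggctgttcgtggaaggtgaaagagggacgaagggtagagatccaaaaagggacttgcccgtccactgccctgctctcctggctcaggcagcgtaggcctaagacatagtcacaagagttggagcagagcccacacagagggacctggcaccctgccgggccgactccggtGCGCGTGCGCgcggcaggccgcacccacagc
Alad: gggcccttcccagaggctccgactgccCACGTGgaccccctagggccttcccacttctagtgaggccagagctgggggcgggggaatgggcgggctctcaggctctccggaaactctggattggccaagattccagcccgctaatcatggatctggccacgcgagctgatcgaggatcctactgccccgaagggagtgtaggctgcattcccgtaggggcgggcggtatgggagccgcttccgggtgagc
Searched on both strands, the nuclear respiratory factor 1 motif was in 3.75% of 33469 such windows and, among the members, in that of Alas1 alone, starting at -31. ACGTG was in 16.6% of windows, among them those of Alad and Urod. The GATA motif AGATAA was in 10.3% of windows, among them those of Fech, starting at -135, and of Alas2, whose window lies inside the gene. A match is a description of letters and not a binding site.

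**Figure D1:**
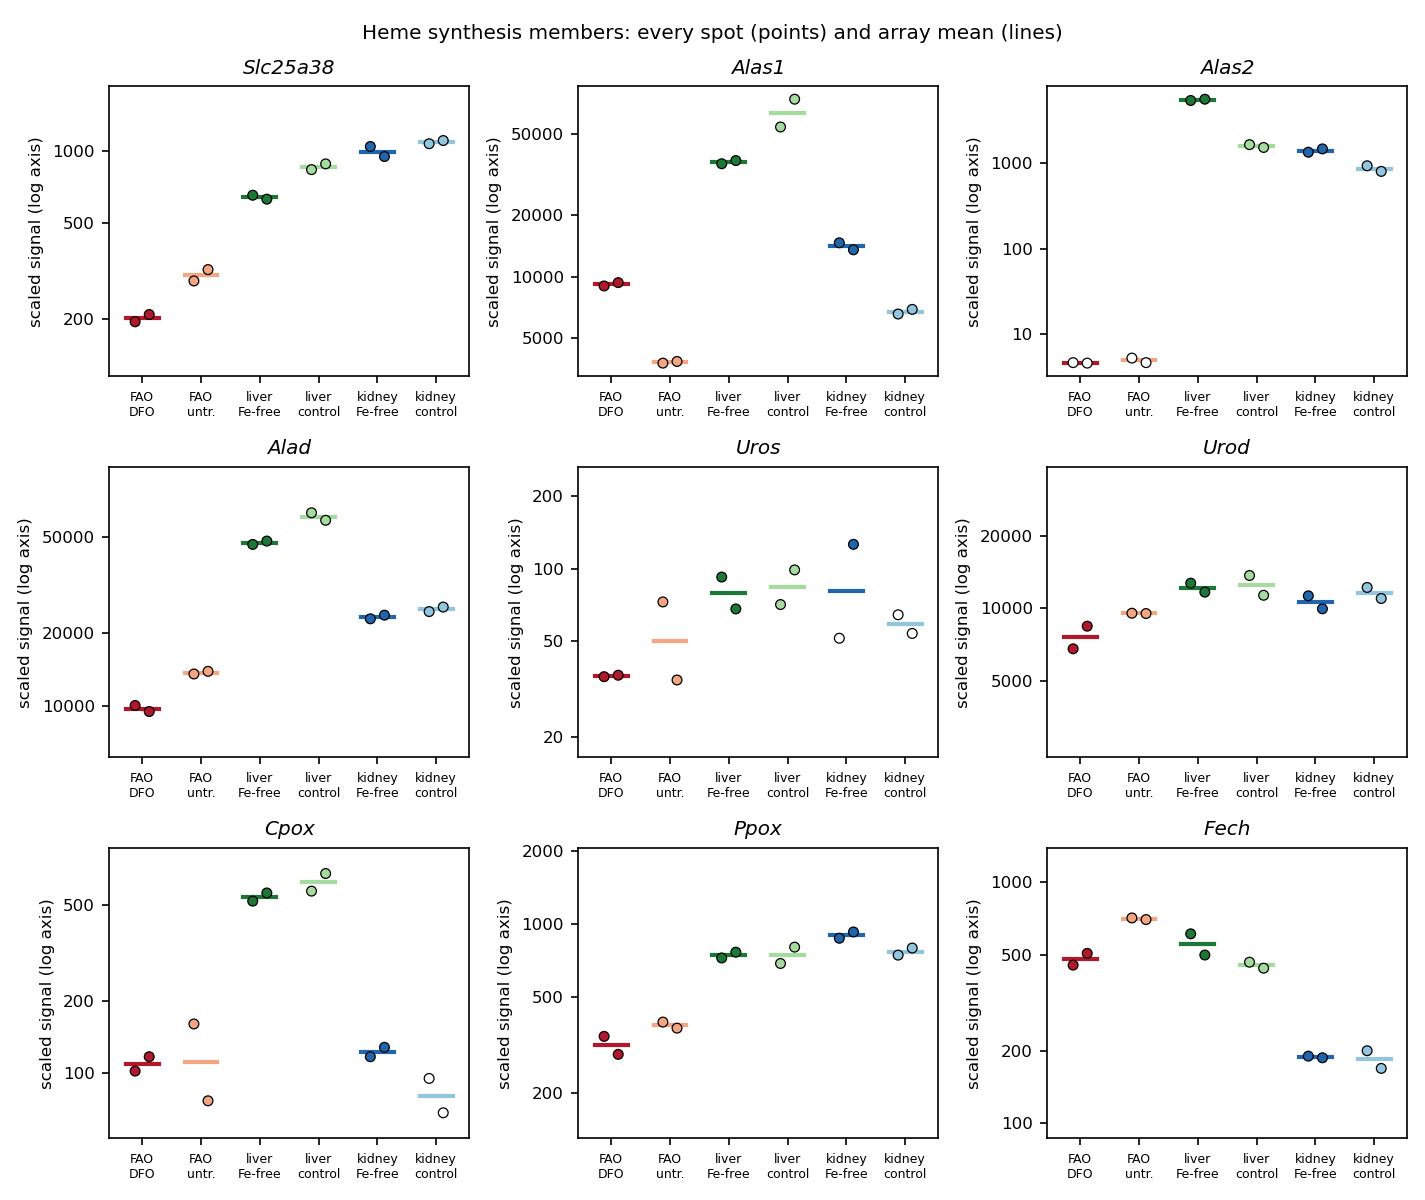
Scaled signal (log axis) of each heme synthesis gene on the 6 arrays. Points are the 2 spots of the probe, open where a spot was not well above background, and lines are array means: Alas1 is highest in control liver (63128), and Alas2 is near the lowest signals in FAO cells (4.54 and 4.86).

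The FAO comparison asks how liver cells respond to chelation within 24 h. DFO-treated cells had more RNA of Alas1 and, at sizes under 2-fold, lower signals of the other measured members. Of 8 members with a value, 1 was called higher and 0 lower, where 10.5% of all 10696 genes with a value were called, 4.05% higher and 6.44% lower (433 and 689 genes, or 365 and 253 without spots in noisy blocks). The median of the 8 members was -0.41, against 0.03 over all genes with a value.

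Alas1 had a scaled signal of 9177 in DFO-treated cells (spots 9005 and 9352) and 3812 in untreated cells (spots 3777 and 3848). The spots of the 2 arrays did not overlap, and the difference was 1.27 ± 0.15, or 2.41-fold higher with DFO. Of all genes with a value, 97.3% had a lower difference. Alas2 stayed near the lowest signals of the array, with 4.54 in DFO-treated and 4.86 in untreated cells, both not well above background, so no fold is given. Of 20 erythroid markers on the array 5 had a value in FAO cells and 2 were called higher, the erythropoietin receptor Epor (1.44 ± 1.07) and Ahsp (at least 4.86-fold, a log2 bound of 2.28, and of 1.21 without noisy blocks), while the beta-globin gene Hbb was not well above background with or without DFO. Hepatocyte markers had 1 of 13 called higher and 4 lower in FAO cells: Fgb was at 1.11 (0.05 by its other probe), Cyp2e1 at -1.80, Ttr at -1.67 (-0.65 without noisy blocks), Apob at -1.24 with both DFO spots in noisy blocks, and Arg1 at -1.05. The leukocyte marker Cd14 was at 1.34, and the kidney tubule marker Slc22a6 was at least 2.68-fold lower (-0.80 without noisy blocks). Their part in the values of the members was not tested.

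The remaining members with a value all had a value below 0, against 47% of all genes. Slc25a38, the glycine importer, was at 202 in DFO-treated and 304 in untreated cells (-0.59 ± 0.50). Fech, whose protein carries an iron-sulfur cluster, was at 479 in DFO-treated cells (spots 453 and 507) and 706 in untreated cells (spots 700 and 711), a difference of -0.56 ± 0.29. Its spots did not overlap between arrays, nor did those of Slc25a38, Alad, Urod and Ppox. How often the spots of all probes fail to overlap was not counted in any comparison. This mark is therefore a description and not evidence of a difference. For Fech and for Slc25a38, 1 of the DFO spots lay in a noisy block, and for Ppox 1 of the untreated spots did.

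Alad, the zinc enzyme that joins aminolevulinate into a pyrrole, was at 9737 with DFO (spots 9460 and 10022) and 13714 without (spots 13542 and 13888), at -0.49 ± 0.14. Urod, which trims the side chains of uroporphyrinogen, was at 7577 with DFO and 9539 without (-0.33 ± 0.16). Alas1, Alad and Urod were the members whose difference passed 2 spot standard errors. The dimmer enzymes did not: Uros was at 35.8 with DFO and 50.1 without (-0.48 ± 1.07), Ppox at 314 and 380 in the same order (-0.28 ± 0.47) and Cpox at 109 and 111 (-0.02 ± 0.51). The 2 untreated spots of Uros were 34.5 and 72.7 and those of Cpox 76.8 and 160, wider apart than their array difference.

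Under the 13 alternatives in processing, 6 to 7 of these 7 genes stayed below 0, with a median between -0.51 and -0.20. Only Cpox crossed 0.

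**Figure D2:**
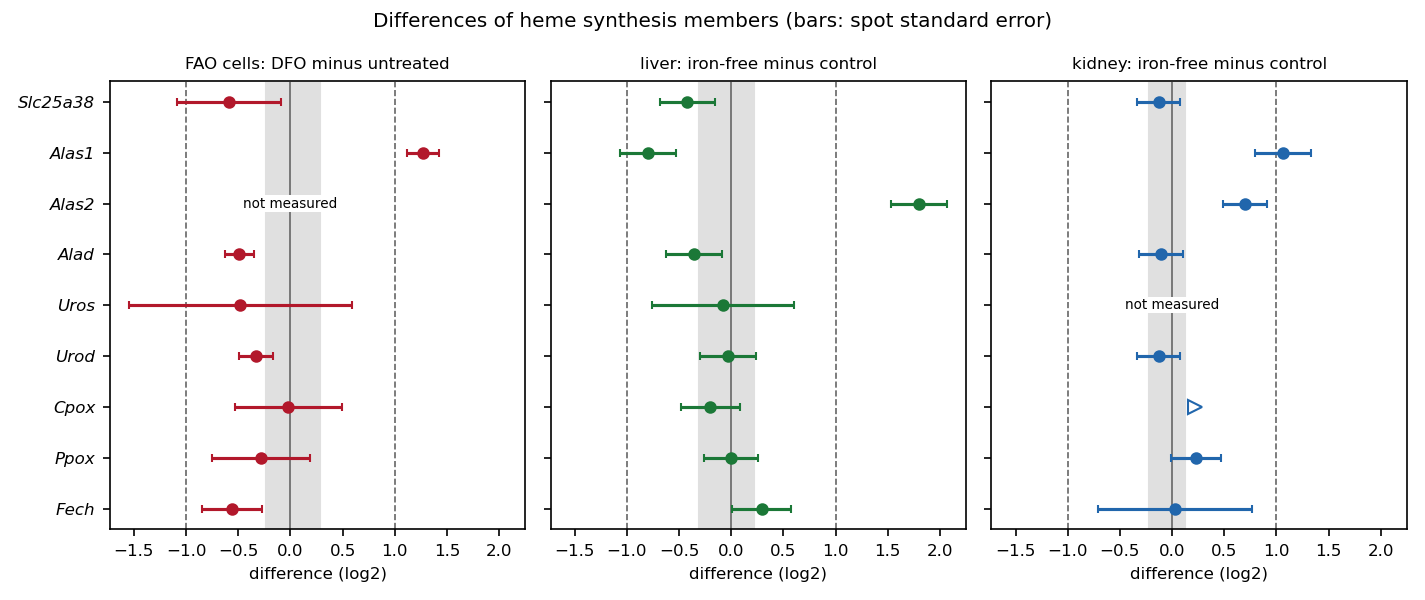
Difference (log2) of each member in FAO cells, liver and kidney, in pathway order from the top. Points are values with ± the spot standard error, the triangle is a lower bound, dashed lines mark 2-fold, and grey bands hold the middle 50% of all measured genes. Alas1 lies at 1.27 in FAO cells, -0.80 in liver and 1.06 in kidney.

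The liver comparison asks how 4 weeks without dietary iron changed the tissue. Iron-free liver had 3.49 times the Alas2 RNA of control liver, a lower Alas1 signal that did not reach 2-fold, and porphyrin enzymes close to their control level. Of 9 members, 1 was called higher and 0 lower, where 9.53% of 10172 genes were called, 6.52% higher and 3.01% lower (663 and 306 genes, or 2120 and 78 with each array set to the median of its detected probes). The members' median was -0.08, against 0.02 over all genes with a value.

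Alas2 had a scaled signal of 5593 in iron-free liver (spots 5495 and 5693) and 1602 in control liver (spots 1543 and 1664). The spots were far apart between the arrays and no spot lay in a noisy block. The difference was 1.80 ± 0.27, above that of 98.3% of genes, and it stayed between 1.35 and 2.38 under the alternatives.

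Alas1 had 36326 in iron-free liver (spots 35681 and 36982) and 63128 in control liver (spots 53984 and 73821), a difference of -0.80 ± 0.27, which is not called. The 2 control spots differed by 0.45 on the log2 scale, and the brighter one lay in a noisy block. Without spots in noisy blocks the difference was -0.49, and with each array set to the median of its own detected probes it was -0.22. That scaling put the median of measured genes in liver at 0.52, against -0.06 in the main processing, and relative to the median of measured genes Alas1 was at -0.74.

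The other members in liver lay between -0.42 and 0.29. Slc25a38 was at 641 in iron-free and 858 in control liver (-0.42 ± 0.26) and Alad at 47426 and 60905 in the same order (-0.36 ± 0.27). Fech was at 552 in iron-free liver (spots 499 and 611) and 453 in control liver (spots 440 and 466), at 0.29 ± 0.28. The spots of Slc25a38, Alad, Fech and Cpox did not overlap between the liver arrays. Cpox (-0.20 ± 0.28), Uros (-0.08 ± 0.68), Urod (-0.03 ± 0.27) and Ppox (0.00 ± 0.26) were closer to 0. Of these 7 genes, between 0 and 6 lay below 0 under the alternatives, so no direction is given for them. Alas1 and Alas2 were the members beyond 2 spot standard errors.

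Some markers of erythroid cells were higher along with Alas2 in iron-free liver. Of 20 such genes on the array, 9 had a value, 5 were called higher and 0 lower (median 1.69). The rest of the 9 were not called. In iron-free liver 9 were well above background and in control liver 7, and genes dim on both arrays have no value. Ahsp, the chaperone of alpha-globin, was at 4795 in iron-free and 710 in control liver (2.76 ± 0.27, and 3.24 by its other probe). The Rh blood group gene Rhd was at 3.06 ± 0.56 and the anion exchanger Slc4a1 at 1.69 ± 0.30 (3.19 without noisy blocks). Hbb, the beta-globin gene, was at 1.71 ± 0.27 by its brighter probe and 0.47 by the other, and both control spots of the brighter probe lay in noisy blocks. Alpha-globin (Hba1) was at 0.01 by its brighter probe and 1.79 by the other.

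The summed scaled signal of the erythroid list was 431183 in iron-free and 328469 in control liver, a sum over different probes that is set by its brightest ones. The transcription factor Gata1 was not well above background on either liver array. Proliferation markers were called higher in 5 of 7 cases (median 2.52), among them the cell cycle kinase Cdk1 at 3.36 ± 0.18, Mki67 at least 7.85-fold and the topoisomerase Top2a at least 5.74-fold higher. The ribonucleotide reductase subunit Rrm2 was at 3.21 ± 0.30 by its brighter probe and 0.10 by the other. Macrophage and leukocyte markers were called higher in 4 of 10 cases (median 0.45), of which the lysozyme gene Lyz2 was at 1.51 and, without noisy blocks, at -0.12. The others were S100a9 (1.45 ± 0.46), S100a8 (at least 2.90-fold) and Marco (1.07 ± 0.30, with both control spots in noisy blocks). Of 14 hepatocyte markers in liver 2 were called higher, Apoa1 (1.19 ± 0.27) and Tf (1.05 ± 0.27, and -0.16 without noisy blocks). In bulk tissue, more cells of a type and more RNA per cell cannot be told apart, and the part of blood or erythroid cells in the Alas2 value was not tested.

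**Figure D3:**
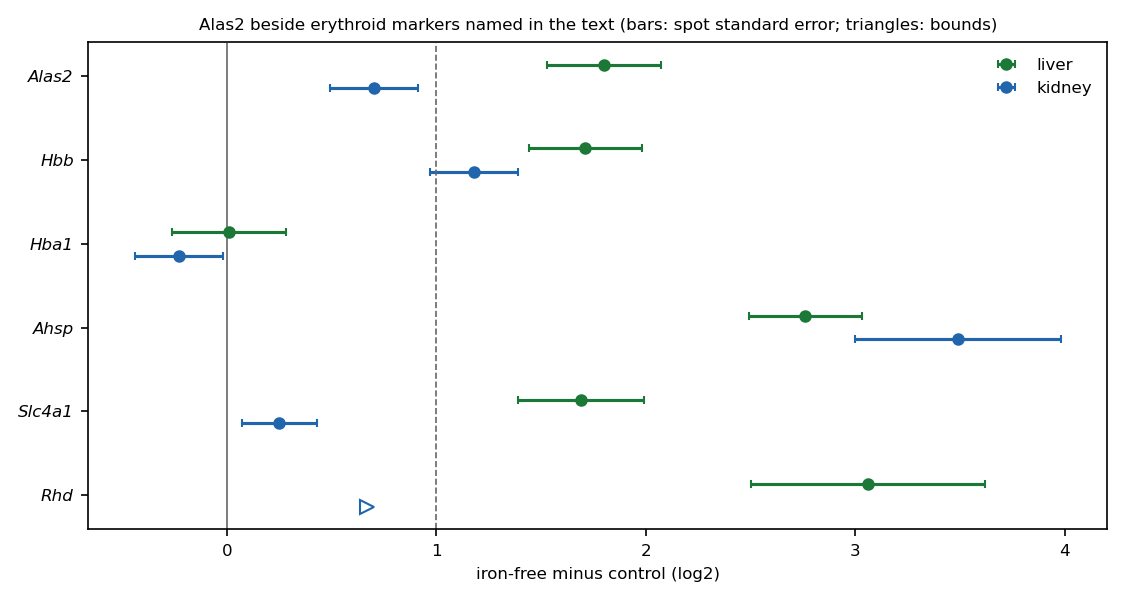
Iron-free minus control (log2) of Alas2 and of the erythroid markers Hbb, Hba1, Ahsp, Slc4a1 and Rhd in liver and kidney, with a row per gene. Other erythroid markers with a value, among them uncalled ones, are not drawn. Whether the kidney signal of Slc4a1 comes from erythroid cells was not tested. Points carry ± the spot standard error, the triangle is a bound, and the dashed line marks 2-fold: Alas2 lies at 1.80 in liver and 0.70 in kidney, and Ahsp at 2.76 and 3.49.

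The kidney comparison puts the same question to another tissue. Iron-free kidney had 2.09 times the Alas1 RNA of control kidney, a higher Alas2 signal under 2-fold, and differences between -0.13 and 0.23 in the other measured members. Of 8 members with a value, 1 was called higher and 0 lower, where 4.37% of 8952 genes were called, 3.11% higher and 1.26% lower (278 and 113 genes, or 402 and 79 with each array set to the median of its detected probes). The members' median was 0.13, against -0.03 over all genes with a value.

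Alas1 was at 14079 in iron-free kidney (spots 13536 and 14643) and 6741 in control kidney (spots 6566 and 6920), at 1.06 ± 0.27. The spots did not overlap, none lay in a noisy block, and 97.1% of genes had a lower difference. The value sat close to the 2-fold line and was 0.97, just short of it, with normexp background correction. Alas2 was at 1418 in iron-free kidney (spots 1356 and 1484) and 871 in control kidney (spots 807 and 940), at 0.70 ± 0.21. The spots did not overlap, and the dimmer iron-free spot lay in a noisy block. The difference is not called, though both Alas genes passed 2 spot standard errors.

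Beyond the first step, Ppox was at 0.23 ± 0.24, Fech at 0.03 ± 0.74, Alad at -0.11 ± 0.21, and Urod and Slc25a38 at -0.13 ± 0.21 each. The spots of Ppox, Alad, Slc25a38 and Cpox did not overlap between the kidney arrays either. This mark alone thus does not set the Alas genes apart. Cpox was at 122 in iron-free kidney and, not well above background, 80.7 in control kidney, which gives at least 1.16-fold higher. Uros was not measured, with 1 of its 4 kidney spots well above background. In kidney, erythroid markers had 2 of 8 called higher (median 0.46): Ahsp was at 3.49 ± 0.49 (2.95 by its other probe) and Hbb at 1.18 ± 0.21 (-0.13 by its other probe, with both control spots of the brighter probe in noisy blocks). Slc4a1 was at 0.25, and Gata1 was below detection in kidney too. Slc4a1 was higher in control kidney (1590) than in control liver (293), whereas Ahsp was lower there (151 against 710). Whether the kidney signal of Slc4a1 comes from erythroid cells was not tested. Of the erythroid markers, 8 were well above background in iron-free and 6 in control kidney. The summed signal of that list was 246622 in iron-free and 236794 in control kidney, and its part in the Alas2 value was not tested.

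Set side by side, Alas1 was called higher in DFO-treated FAO cells (1.27) and iron-free kidney (1.06), and was at -0.80 in iron-free liver. Its liver difference lay 1.86 below its kidney difference, with a spot standard error of 0.38. With 1 array per group that gap was not tested against the spread between animals. Alas2 was called in liver only, yet its kidney value had the same sign, and the gap between the tissues was 1.10 ± 0.35, likewise not tested.

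**Figure D4:**
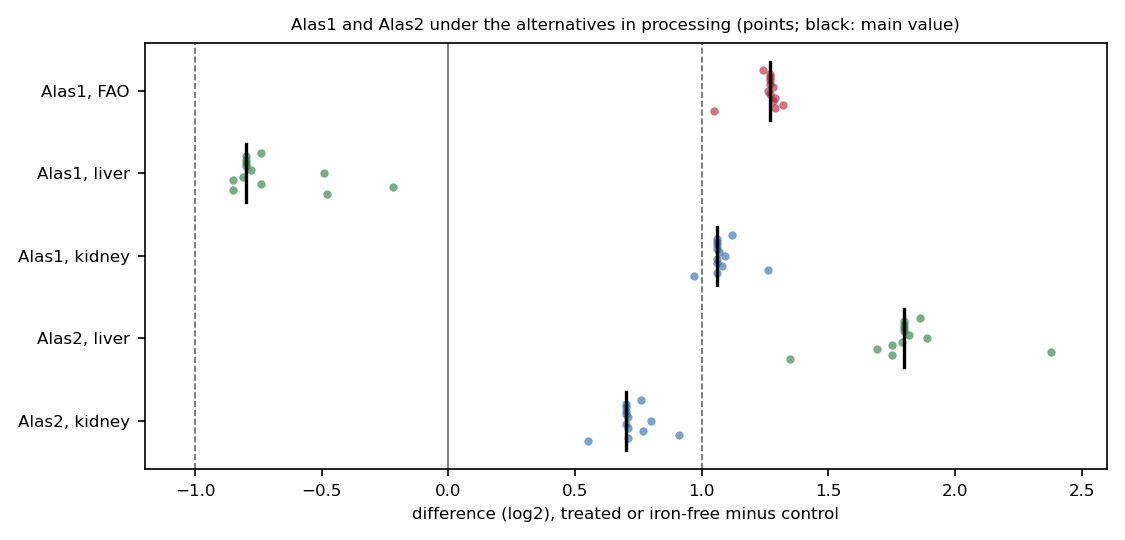
Difference (log2) of Alas1 and Alas2 under the 13 alternatives in processing (points) beside the main value (black line), with dashed lines at 2-fold. Alas1 in liver ranges between -0.85 and -0.22 and keeps its sign, and Alas1 in kidney ranges between 0.97 and 1.26.

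Levels of each enzyme also differed between sources. In control liver against control kidney, 4 of 8 members with a value were at least 2-fold higher and 0 lower, where 41.5% of 9337 genes were called, 14.9% higher and 26.6% lower. Alas1 was at 63128 in liver and 6741 in kidney, 9.37-fold higher (3.23 ± 0.34). Cpox was at least 5.89-fold higher in liver, Fech 2.46-fold (1.30 ± 0.55) and Alad 2.43-fold (1.28 ± 0.29). Urod, Ppox and Slc25a38 were at 0.10, -0.05 and -0.34 in that contrast. On the iron-free diet 5 of 8 members were higher in liver than in kidney and 0 lower, where 38.3% of 10068 genes were called, 13.8% higher and 24.5% lower. On that diet Alas1 was 2.58-fold higher in liver than in kidney (1.37 ± 0.17), and Alas2 3.94-fold (1.98 ± 0.15), against 1.84-fold for Alas2 on the control diet.

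Untreated FAO cells had lower levels than control liver for 5 of 9 members and higher for 0, where 55.5% of 10595 genes were called, 27.8% lower and 27.7% higher. Alas1 was 16.6-fold lower (-4.05 ± 0.27), Cpox 5.58-fold, Alad 4.44-fold and Slc25a38 2.82-fold. Before scaling, the log2 75th percentile was 13.24 on the untreated FAO array and 11.32 on the control liver array. These folds thus depend on the scaling, and contrasts between sources were not run under the 13 alternatives in processing. Alas2 was at least 75.2-fold lower, since it was not well above background in FAO cells. Fech went the other way within 2-fold, at 706 in untreated FAO cells and 453 in control liver (0.64 ± 0.29). With DFO, Alas1 reached 9177 in FAO cells, still below either liver array.

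Ordered by level, Alas1 was highest in control liver, followed by iron-free liver, iron-free kidney, DFO-treated FAO, control kidney and untreated FAO. The neighbours in that order lay more than 2 spot standard errors apart, except DFO-treated FAO and control kidney (0.45 ± 0.25). Alas2 was highest in iron-free liver, then control liver and iron-free kidney, which did not differ beyond their spot spread (0.18 ± 0.30), then control kidney and, far below, both FAO arrays. Urod was the flattest member, between 7577 and 12463 on all 6 arrays, and among neighbours in its order of levels only the FAO pair lay beyond 2 spot standard errors. Ppox lay between 742 and 900 on the tissue arrays. Fech was highest in untreated FAO cells and lowest in the kidney arrays, at 188 and 184.

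The partners of the pathway (substrate supply, mitochondrial transport of iron and porphyrins, iron-sulfur cluster assembly and Alas turnover) had 26 of 27 listed genes on the array. In FAO cells 0 of 26 were called higher and 1 lower (median -0.23). That gene was Iscu, a scaffold of iron-sulfur clusters, at 766 with DFO and 2602 without (-1.76 ± 0.26), and at -0.47 without spots in noisy blocks. In liver 0 of 23 were called (median -0.21), and in kidney 0 of 22 (median -0.10). These counts use the brightest probe of a gene: by another probe Pgrmc1, a heme-binding membrane protein, was at 1.42 in liver (0.45 by its brightest and -0.25 by a further one), and Abcb6, a porphyrin transporter, was at -2.18 in FAO cells (-0.21 by its brightest). Clpx, the mitochondrial chaperone that in yeast and mammals acts on the Alas protein, was at -0.39 ± 0.29 in FAO cells, 0.35 ± 0.25 in liver and -0.52 ± 0.19 in kidney, none of them called.

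Among 19 genes that control heme synthesis or sense heme and iron, 2 of 13 were called higher and 1 lower in FAO cells, 1 of 13 higher and 2 lower in liver, and 1 of 8 higher and 0 lower in kidney. Tfrc, the transferrin receptor, whose messenger RNA is stabilised when iron is low, was the gene of this list called higher in all 3 comparisons, at 1.52, 3.71 and 2.99 by its brighter probe and 2.08, 3.01 and 0.90 by its other probe. In liver the lower genes were Nr1d1, a heme-binding nuclear receptor that represses transcription, at 160 in iron-free and 332 in control liver (-1.05 ± 0.33, and -0.97 without noisy blocks), and Hnf4a, a hepatocyte transcription factor, at 85.3 and 181 in the same order (-1.09 ± 0.55). In FAO cells Nr1i3, a xenobiotic receptor known to induce Alas1, was at least 2.51-fold lower by a single spot whose untreated value lay in a noisy block. Ppargc1a, a coactivator that raises Alas1 in fasting mouse liver, was not well above background on either liver or FAO array and stood at -0.27 ± 0.37 in kidney.

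Of the 8 heme breakdown and scavenging genes on the array, 1 of 7 was called higher and 1 lower in FAO cells, 0 of 8 were called in liver (median -0.25) and 0 of 3 in kidney. Hmox1, the heme oxygenase that opens the ring, had 2898 in DFO-treated and 783 in untreated cells (1.89 ± 0.08), and was at 0.53 ± 0.12 in liver and not well above background in kidney. Blvra, a biliverdin reductase, was at -1.83 ± 0.45 in FAO cells and at -0.54 without noisy blocks.

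The genes most like Alas1 were sought by Pearson correlation of log2 level over the 6 arrays, among 4898 genes well above background on all arrays that varied at least 2-fold. They were Lpar6 (r = 0.987), Csf2ra (0.981), Trap1 (0.979), Yipf5 (0.979) and Apol9a (0.978). Lpar6 had the same signs as Alas1 in the 3 comparisons, at 0.43 in FAO cells, -0.35 in liver and 0.64 in kidney. Csf2ra, Trap1 and Yipf5 also had these signs, while Apol9a was at 0.05 in liver. For Alas2, among 7933 genes well above background on at least 3 arrays, they were Pf4 (r = 0.999), Ctss (0.998), Npy (0.998), Slc4a2 (0.997) and Hbb-bs (0.997). Pf4, the platelet chemokine, was at 1.38 in liver and 1.02 in kidney, and Hbb-bs, a beta-globin gene, at 1.59 and 0.81. Pf4 was well above background on 3 arrays only, and its values are plain differences of signals without the rule for bounds. In the same order Npy was at 0.84 and 0.38, Ctss at 0.74 and 0.23, and Slc4a2 at 0.15 and 0.15. A high r thus did not require a diet difference as large as that of Alas2. These correlations describe 6 arrays of 3 sources. Alas2 itself was not well above background on the 2 FAO arrays.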

How the data were processed

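Per the file headers, the authors scanned 6 one-colour arrays of design 028279 and extracted spots with Agilent Feature Extraction 10.7.3.1; the header names build rn4. The intensity used is the deposited gProcessedSignal, from which the software had already taken the background. The authors' deposited table also gives a log2 value per probe, which is log2 of their probe intensity minus a constant per array (medians -4.17 to -3.26, used only as an alternative). Columns were matched by the array file named in each header and sample description.

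Log2 signals were averaged over the spots of a probe without outlier spots, and arrays were scaled to the 75th percentile of 9091 probes well above background on all arrays. Where 1 array of a pair was not, the difference is a bound: the dim side is set to the probe's own signal or to the lowest signal detected there, whichever is higher. It is written "at least N-fold". The brightest probe stands for a gene in counts over all genes. The standard error pools spot variance in 20 signal bins per array. Array number and signal limit the precision. A noisy block has a spread of repeated spots over 2 times that of the median block of all arrays. This threshold was set after block counts and member spots had been seen. An earlier one, 3 times each array's own median block, marked 1 block on the control liver array and was dropped; its results are not given.

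Python 3.11.15, numpy 2.4.6 and pandas 2.3.3 were used, with limma 3.58.1 (R 4.3.3) for normexp with offset 50, run on median signals, a departure from the planned mean signals, which the files used do not hold. The difference code was run on simulated data with the same detection on all arrays, so the bounds were not tested. Members, lists, motifs and settings were chosen with earlier results of these data known. The genes named are all members, list genes at least 2-fold different (at most 4 per list and comparison), Tfrc, Hmox1, Hbb and Ahsp, and the 5 most correlated with each Alas gene; Clpx, Pgrmc1, Abcb6, Ppargc1a, Gata1 and Hba1, Slc4a1 in kidney and the markers Alb and Umod were chosen after their values were seen. One list gene that the rule would name is not reported here. Alternatives were background correction, scaling, quantile normalization, the authors' values, outlier spots, noisy blocks, detection, the dim filter, the probe rule, the spot average and a 1.5-fold rule.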

Additional observations from a re-analysis of the deposited data

Results flagged for a closer look

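Alas1 stood out because the same diet contrast had opposite signs in the 2 tissues, each beyond 2 spot standard errors: iron-free minus control was -0.80 in liver and 1.06 in kidney. The liver value was -0.49 without spots in noisy blocks, -0.48 with normexp and -0.22 with each array set to the median of its detected probes, all under 2 times its spot standard error of 0.27. Each tissue and diet is 1 array of pooled RNA, so the difference between tissues was not tested.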

How the results depend on the processing

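No paired analysis was possible because each group is 1 array. No array could be left out for the same reason. Of 325 values of single members under 13 alternatives, 123 equalled the main value at 2 decimals, since several alternatives change only calls, detection or the choice of probe. Of the other 202, 187 moved by less than 1 spot standard error and 15 by more. No called value changed sign (0 values), but uncalled ones did, among them Slc25a38 in liver (-0.42, at most 0.16) and Alad in liver (-0.36, at most 0.22). The members' liver median became 0.50 with each array set to the median of its detected probes, a scaling that also gave 2120 higher and 78 lower genes. The kidney count of higher members was 0 with normexp and 2 with a 1.5-fold rule. With the 1.5-fold rule, 1 member was lower in FAO cells (Slc25a38) and 1 in liver (Alas1). The causes were not tested. Without spots in noisy blocks (a threshold set after the data were seen), lower genes in FAO cells numbered 253 in place of 689 and the members' counts stayed the same. With 1 spot enough for detection, 870 genes were higher and 1299 lower in FAO cells, 1116 and 513 in liver, and 635 and 436 in kidney. Without a filter on dim probes these were 1202 and 1642, 1437 and 1769, and 878 and 730. With a mean over probes they were 284 and 365, 271 and 212, and 110 and 46. That mean took measured probes only, so bounds were left out and the counts cover 9746, 8573 and 8102 genes. With normexp liver had 366 and 175 and kidney 188 and 70. The median of detected probes changed the kidney split to 402 and 79. With the 1.5-fold rule genes numbered 1132 and 1253 in FAO cells, 1481 and 960 in liver, and 655 and 436 in kidney. Another alternative, differences taken relative to the median of all measured genes, was added after the data were seen. Dim members (Uros, Cpox) are limited by signal over background.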
